A study of Mus musculus with 12 samples.

Results

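The PARP family genes code for poly(ADP-ribose) polymerases and related mono-ADP-ribosyltransferases. The genes taken here were Parp1, Parp2, Parp3, Parp9, Parp10, Parp12 and Parp14, each with all probes that the platform annotation lists under its symbol. Of the 7 genes, 6 had a named probe, with 9 probes between them, out of 16593 named genes and 25697 probes on the array. Parp10 had no probe under its symbol or gene ID and was not analysed here. The genes were split by textbook knowledge into an interferon-responsive class (Parp9, Parp10, Parp12, Parp14) and a constitutive class (Parp1, Parp2, Parp3). Earlier results of these data were known when the classes were chosen.

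RNA came from mouse astrocytes that had been grown from a neural stem cell line, labelled Rosa25/OG2, for 4 days in 10% fetal calf serum and matured for 14 days. The non-activated control was cultured without stimuli. The activated control received lipopolysaccharide (LPS), a bacterial cell wall component, at 1 µg/ml together with interferon-gamma (IFN-γ) at 10 ng/ml. Each of 10 compounds with code names (E4 and E5, then E14, then E18 to E21 without gaps, E23, and lastly E29 and E33) was given for 4 h to cells that received the same stimuli. Doses are not in the labels, which give 4 h of culture for each of the 12 groups, both controls included. Each of the 12 groups had 1 array, so no difference below has a replicate check, a test or an error, and all compounds share 1 activated control array. All groups share the 1 cell line, and how many cultures went into a sample is not stated.

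PARP enzymes split NAD and attach its ADP-ribose part to proteins or nucleic acids. PARP1 and PARP2 build long ADP-ribose chains at DNA breaks and recruit repair proteins, and PARP3 attaches single units at double-strand breaks. PARP9, PARP12 and PARP14 belong to a group whose transcription is raised by interferons in many cell types: PARP9 pairs with the ubiquitin ligase DTX3L and helps interferon-stimulated transcription and antiviral defence, PARP14 is a large macrodomain protein first described as a cofactor of STAT6, and PARP12 is a zinc finger protein that restricts virus replication.

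Promoter letters are shown because Parp12 and Parp3 were higher after activation and Parp1 and Parp2 were not 2-fold changed. The RefSeq promoter table (build GRCm38.p6) held 4 of the 7 genes, and the 250 bases before each start are given 5′ to 3′ along the gene's own strand, with capitals marking the GC box, GGGCGG or its complement CCGCCC, a motif chosen after the values were seen. The windows were chr1:180568641-180568890 (+ strand) for Parp1, chr14:50807666-50807915 (+ strand) for Parp2, chr9:106476950-106477199 (- strand) for Parp3 and chr6:39118350-39118599 (- strand) for Parp12.
Parp1: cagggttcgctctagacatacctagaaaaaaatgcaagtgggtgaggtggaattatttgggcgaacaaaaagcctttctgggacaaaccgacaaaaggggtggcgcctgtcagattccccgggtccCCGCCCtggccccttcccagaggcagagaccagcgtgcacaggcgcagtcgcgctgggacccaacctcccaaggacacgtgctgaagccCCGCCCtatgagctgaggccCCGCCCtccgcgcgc
Parp2: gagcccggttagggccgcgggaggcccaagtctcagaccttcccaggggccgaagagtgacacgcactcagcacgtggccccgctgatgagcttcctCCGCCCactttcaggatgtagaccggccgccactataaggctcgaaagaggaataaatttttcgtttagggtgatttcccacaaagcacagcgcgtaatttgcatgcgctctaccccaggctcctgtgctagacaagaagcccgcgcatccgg
Parp3: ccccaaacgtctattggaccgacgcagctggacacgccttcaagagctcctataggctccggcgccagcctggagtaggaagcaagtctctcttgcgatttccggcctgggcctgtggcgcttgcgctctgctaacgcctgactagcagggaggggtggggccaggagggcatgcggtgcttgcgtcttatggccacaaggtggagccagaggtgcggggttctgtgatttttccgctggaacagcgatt
Parp12: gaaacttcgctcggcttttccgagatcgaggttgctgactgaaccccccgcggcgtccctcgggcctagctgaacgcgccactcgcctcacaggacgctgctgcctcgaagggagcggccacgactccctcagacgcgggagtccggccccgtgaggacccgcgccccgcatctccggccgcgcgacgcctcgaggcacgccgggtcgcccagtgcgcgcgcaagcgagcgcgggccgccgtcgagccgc

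In these windows Parp1 had 3 GC boxes, whose 5′ ends lay 124, 35 and 15 bases before the start, and Parp2 had 1, at 153 bases before it. Parp3 and Parp12 had 0. Of 32851 mouse promoters with a window of the same length, 32.7% held a GC box. The core of the interferon-stimulated response element was searched as GAAA, any 2 bases and GAAA again on both strands, with 0 matches in the 4 windows against 2.98% of all promoters. The gamma-activated site was searched as TTCNNNGAA on both strands, with 0 matches in the 4 windows against 7.02% of all promoters. These matches describe letters in 250 bases and nothing further. Parp9, Parp10 and Parp14 have no entry in the table. In the RefSeq gene order of chromosome 16, Parp14, Dtx3l and Parp9 follow each other directly, and Dtx3l had no named probe.

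Levels below are log2 normalised intensities of 1 probe per gene, its brightest where it had several, and are set against each other only within a probe. Parp3, Parp9, Parp12 and Parp14 had 1 probe each, so no second probe checks their values. A probe was detected on an array if its detection p-value, which ranks it against the negative control beads of that array, was under 0.01. The number of probes detected per array ran from 9106 with E29 to 10719 without stimuli, and the arrays had median deposited intensities of 117.1 (E4) to 127.3 (E14). Of 8 astrocyte markers, 7 were detected on every array, and Gfap, an intermediate filament gene of astrocytes, lay between 12.37 and 12.87. Of 12 microglial markers with a probe, 0 were detected on any array, as were 0 of 3 oligodendrocyte and 0 of 2 endothelial markers; 2 of 5 neuronal markers (Syt1, Map2) and 2 of 3 neural stem cell markers (Nes, Sox2) were detected on all 12 arrays.

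All 3 measured interferon-responsive genes were higher after activation, as was Parp3 from the constitutive class, while Parp1 and Parp2 stayed under 2-fold. Parp14 showed the largest difference of the 6 genes. It read 6.98 on the non-activated array and 11.54 on the activated array, a difference of 4.56 log2 units or 23.5-fold. This placed it 10th from the top among 7659 measured genes. In deposited intensity, before any correction, the same probe (ILMN_2825803) read 243.9 and 3241.

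Parp9 was not detected without stimuli, where its normalised value of 5.17 had a detection p-value of 0.0276. On the activated array it read 7.98. Set against the lowest detected value of the non-activated array, 5.37, it was at least 6.09-fold higher, a bound that places it 41st from the top. Its deposited intensities were 132.5 and 371.2. Parp12, the zinc finger member, was detected on all 12 arrays and read 6.51 and 7.95, which is 2.71-fold higher with activation and 132nd from the top.

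Parp3 went against its class. The DNA-break sensor read 6.50 without stimuli and 8.11 with them, a 3.03-fold difference that ranked 100th from the top, ahead of Parp12. Parp1 read 9.26 and 9.24, and Parp2 read 9.11 and 8.79, changes of -0.01 and -0.32 log2 units. Among the 6 genes 4 were called 2-fold higher and 0 lower, against 3.17% of all measured genes called higher and 2.12% called lower. By class the count was 3 of 3 measured interferon-responsive genes with a median change of 2.61, and 1 of 3 constitutive genes with a median of -0.01. The median of all measured genes was -0.03. Because the classes were chosen with earlier results known, this contrast is no separate support for them. LPS and IFN-γ were given together, so their parts in these changes cannot be told apart. In RNA from whole cultures, fewer cells with a transcript and less transcript per cell cannot be told apart. Without background correction Parp12 and Parp3 came to 0.87 and 0.99 log2 units, under 2-fold, and Parp14 and Parp9 to 3.80 and 1.35, both past it.

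**Figure D1:**
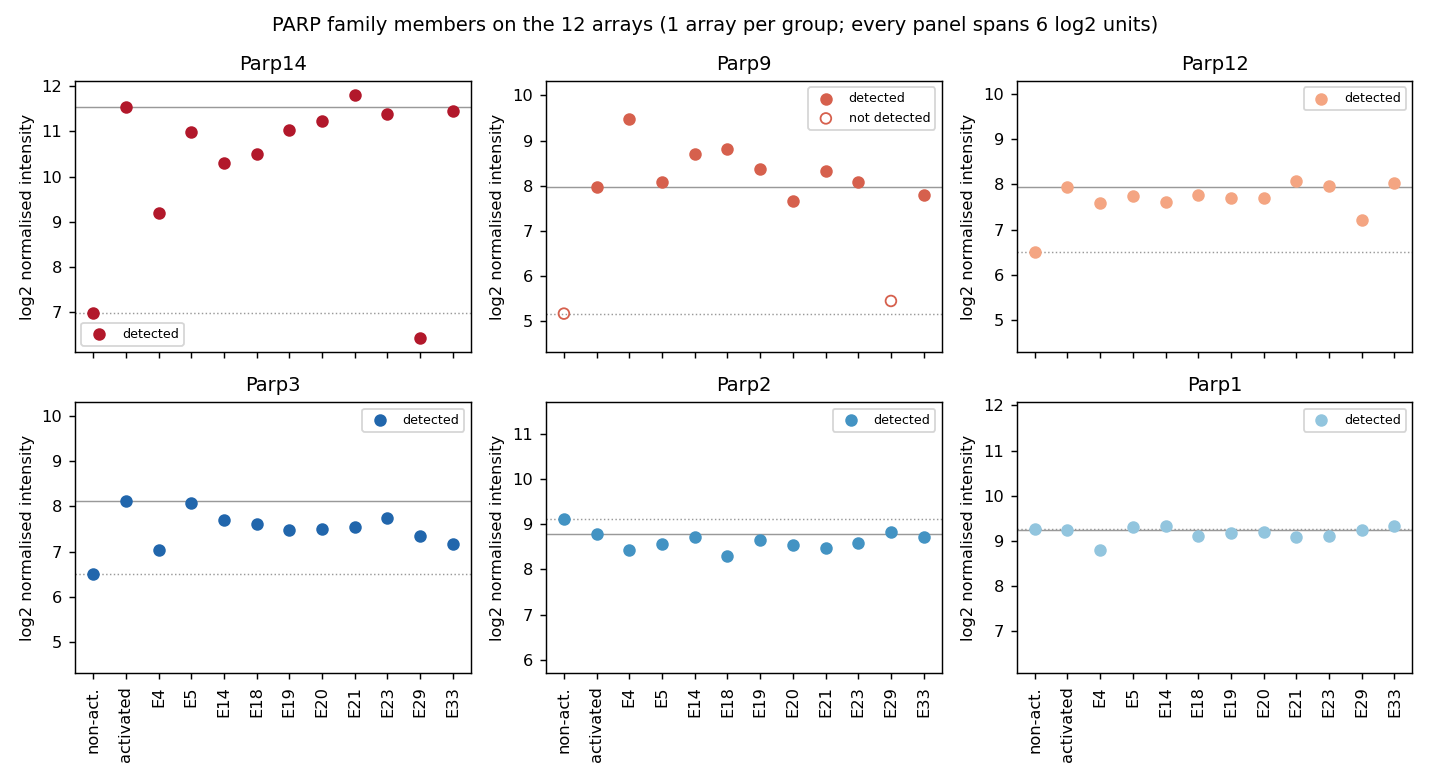
Log2 normalised intensity (y axis) of the brightest probe of each of the 6 genes on the 12 arrays (x axis, 1 point per array), with the solid line at the activated and the dotted line at the non-activated control; open points were not detected. Parp14 runs from 6.42 to 11.81 and Parp9 from 5.17 to 9.47, whereas Parp1 stays between 8.81 and 9.33.

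The 11 arrays of stimulated cells show how far each gene moved among compounds. The standard deviation of the level over these arrays, which are different treatments and not replicates, was 1.55 for Parp14, 1.01 for Parp9, 0.33 for Parp3, 0.25 for Parp12, 0.16 for Parp2 and 0.15 for Parp1. Parp14 was lower than in the activated control with 9 of 10 compounds, E21 at 11.81 being the exception. Parp9 was higher than in the activated control with 7 of 10. With the other stimulated arrays' median as the reference, Parp14 turned to the higher side with E20 (0.24), E23 (0.39) and E33 (0.46), and Parp9 to the lower side with E5 and E23 (both -0.12). With 1 array per group there is no spread by which neighbours in such an order could be separated.

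With E4, Parp14 was lower and Parp9 higher than in the activated control, although both were higher after activation and lie in the same stretch of chromosome 16. Parp14 read 9.20 with E4 against 11.54, which is 5.06-fold lower and the 3rd lowest change of 7494 measured genes. Parp9 read 9.47 against 7.98, which is 2.81-fold higher and the 6th highest change. The deposited intensities moved the same way, from 3241 to 590.1 for Parp14 and from 371.2 to 703.9 for Parp9. E4 thus gave the highest Parp9 level of all 12 arrays and the lowest Parp14 level of the arrays with stimuli other than E29.

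Parp3 was also called lower with E4, at 7.03 against 8.11 or 2.11-fold. Its deposited intensity on the E4 array, 197.5, was near the 200.8 of the non-activated array, but such values are not normalised. The E4 array had the lowest median deposited intensity, 117.1. Parp1 and Parp2 also read lower on it, at 468.5 against 797.5 and 380.4 against 728.7 without stimuli. After normalisation Parp3 read 7.03 with E4 against 6.50 without stimuli. Parp12 (-0.36), Parp1 (-0.43) and Parp2 (-0.35) stayed under 2-fold, all on the lower side. Of the 6 genes 1 was called higher and 2 lower, where 0.494% of all measured genes were called higher and 2.88% lower. Scaled to 8 reference genes, which puts the median of all genes at -0.46 in place of 0.04, Parp9 came to 0.96 log2 units and missed 2-fold, while Parp3 came to -1.68. With the other stimulated arrays' median as the reference, Parp3 came to -0.54 and missed it too.

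E14 and E18 gave the same pair of directions at smaller size. Parp14 read 10.31 with E14, 2.34-fold lower and the 9th lowest change of 7482 genes, and 10.49 with E18, 2.08-fold lower and the 16th lowest of 7349. Parp9 read 8.71 and 8.82, differences of 0.73 and 0.84 that were under 2-fold yet the 12th and 9th highest changes on those arrays. Few genes passed 2-fold in these comparisons: 0.254% of genes were called lower with E14 and 0.259% with E18, and 0.0267% and 0.0408% higher. Parp14 was the 1 member called in each comparison. These comparisons use the same control array as E4, so its error enters all of them alike. With the other stimulated arrays' median as the reference, the Parp14 changes were -0.81 for E14 and -0.64 for E18, both under 2-fold.

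**Figure D2:**
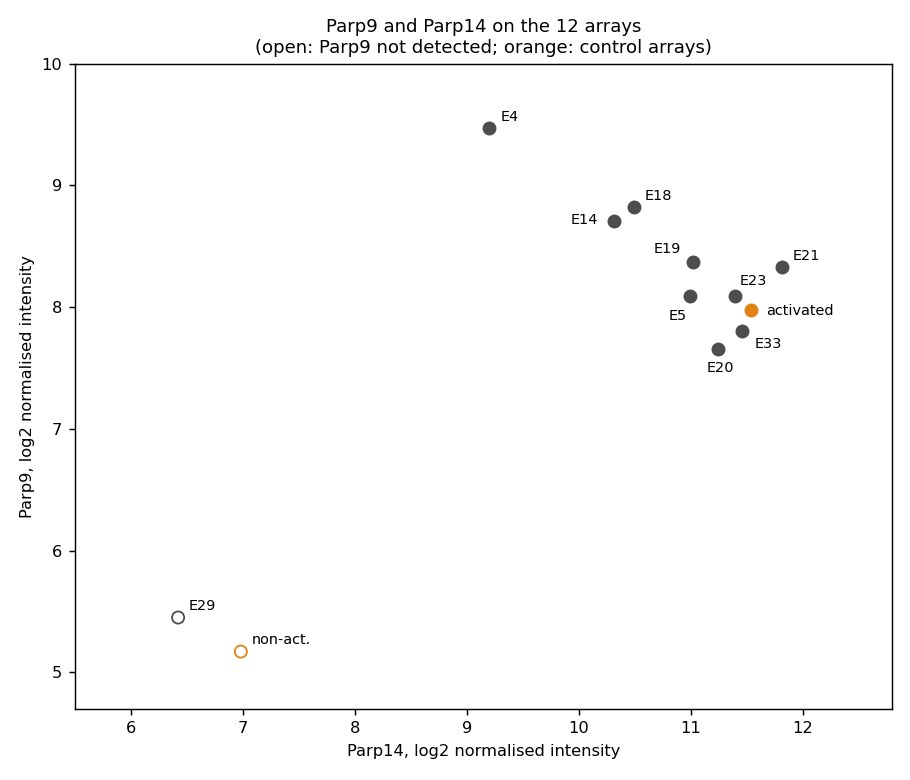
Parp14 (x axis) against Parp9 (y axis), both in log2 normalised intensity, with 1 point per array, control arrays in orange and open points where Parp9 was not detected. E4 sits at 9.20 on the Parp14 axis and 9.47 on the Parp9 axis, and E14 and E18 lie between it and the activated control at 11.54 and 7.98.

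E29 brought both genes to the low end. Parp14 read 6.42 against 11.54 in the activated control, 34.8-fold lower and the 15th lowest change of 7472 genes. Its deposited intensity was 155 and its detection p-value 0.00501, close to the limit of detection. Parp9 was not detected on the E29 array, where its value was 5.45 with a detection p-value of 0.0288, and it was at least 3.98-fold lower, counted to that array's lowest detected value of 5.99. Parp14 and Parp9 were the 2 members called lower, and 0 were called higher. On the same array 14.5% of all measured genes were called lower and 10.2% higher, it detected the fewest probes of the 12, and the part of these differences in the PARP values was not tested.

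The remaining genes changed by less than 2-fold with E29. Parp12 read 7.21 against 7.95 and Parp3 7.34 against 8.11, changes of -0.74 and -0.77. Parp1 read 9.24 on both arrays and Parp2 8.83 against 8.79. The median of all measured genes with E29 was 0.25, and relative to it Parp14 was at -5.38, Parp3 at -1.02 and Parp12 at -0.99. Scaled to reference genes, which puts that median at -0.59, Parp12 and Parp3 passed 2-fold, at -1.84 and -1.87, and Parp14 and Parp9 came to -6.19 and -3.04. Without background correction these last came to -4.09 and -1.13. Scaling to reference genes took Parp2 from 0.04 to -0.90. The lowest Parp1 value over the settings was -0.88, so neither gene is firmly unchanged with E29.

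The other 6 compounds, E5, E19, E20, E21, E23 and E33, called 0 of the 6 genes in either direction. Backgrounds in either direction were also low, at 0.0947% for E5, 0.409% for E19, 0.0406% for E20, 0.107% for E21, 0.041% for E23 and 0.973% for E33. Parp14 levels with these compounds ran from 10.99 (E5) to 11.81 (E21), changes of -0.55 to 0.27. Parp9 ran from 7.66 (E20) to 8.37 (E19). Parp12 lay between 7.69 (E20) and 8.07 (E21), the narrowest band of the 3 interferon-responsive genes.

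Parp3 was below the activated control with all 10 compounds, which no other member was. That array held the highest Parp3 level of the 12, so the low readings share its error. After E4 the lowest reading was with E33, at 7.17, a change of -0.94. E19, E20 and E21 gave 7.47, 7.49 and 7.54, changes of -0.64, -0.61 and -0.56. E5 read 8.08 and differed from the control by -0.03. With the other stimulated arrays' median as the reference, Parp3 turned to the higher side with E14 (0.17), E18 (0.08), E23 (0.23) and E5 (0.56).

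**Figure D3:**
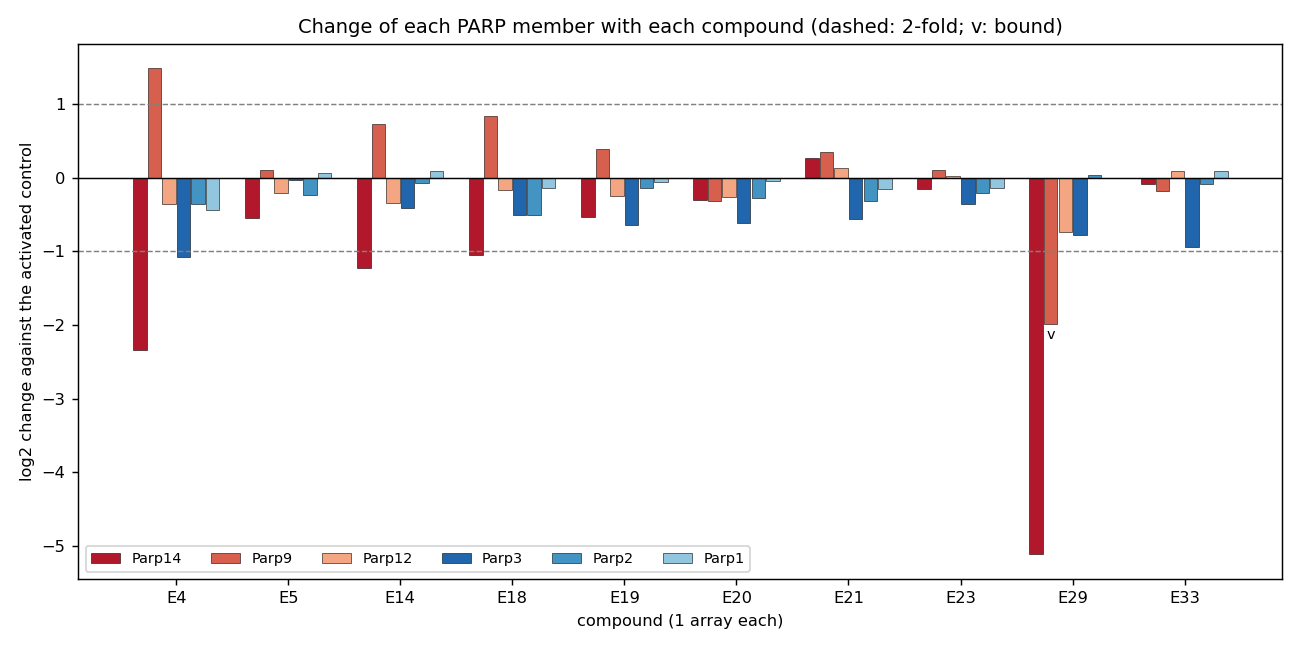
Log2 change against the shared activated control (y axis, bars from 0) of each gene with each compound (x axis, 1 array each); dashed lines mark 2-fold and the letter v a bound. Parp14 bars reach -2.34 with E4 and -5.12 with E29, and the Parp9 bar reaches 1.49 with E4.

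Set against the non-activated control, the question is how far each gene stayed above its level without stimuli. All 3 measured interferon-responsive genes were still 2-fold higher with each compound but E29. The share of all measured genes called higher in the same comparisons was 2.89% for E5, 2.75% for E14, 3.46% for E18, 2.71% for E19, 2.93% for E20, 3.61% for E21, 2.82% for E23 and 2.26% for E33. With E4, where that share was 3.11%, Parp9 was at least 17.1-fold higher, Parp14 4.65-fold and Parp12 2.11-fold. Parp3 was 2-fold higher with E5 (1.57), E14 (1.19), E18 (1.10), E21 (1.04) and E23 (1.24). It missed 2-fold with E20 (0.99), E19 (0.96), E33 (0.66) and E4 (0.53, which turned to -0.08 when scaled to reference genes). Parp12 and Parp3 lay close to the 2-fold line in several of these, and without background correction Parp12 missed it with each of the 9 compounds other than E29, and Parp3 with each of the 5 listed as higher.

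With E29, 0 of 5 measured members differed 2-fold from the non-activated control, where 7.38% of all genes were called higher and 13.1% lower. Parp14 was at -0.56 log2 units, and Parp9 was undetected on both arrays. Parp12 was at 0.70 and Parp3 at 0.84, yet their deposited intensities were nearly equal on the arrays compared, 201.1 and 200.0 for Parp12 and 200.8 and 210.0 for Parp3. Scaled to reference genes these changes turned to -0.39 and -0.26, so neither has a settled direction. Under that scaling, which puts the median of all genes at -0.60 in place of 0.19, Parp14 (-1.69) and Parp2 (-1.20) passed 2-fold on the lower side.

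Parp1, the main sensor of DNA breaks, had 3 probes. The brightest (ILMN_2971744) and another (ILMN_2621385) were detected on all 12 arrays, and ILMN_1222228 on 4. Both fully detected probes were lowest with E4, with changes of -0.43 and -0.41 against the activated control. With the other compounds the brightest probe stayed between -0.15 (E21) and 0.09 (E14, E33).

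Parp2, which shares much of PARP1's role in repair, was highest without stimuli, and 0 of 11 stimulated arrays exceeded that level of 9.11. Its second probe (ILMN_2598576), detected on 10 arrays, was also highest there, at 6.09. For activation the probes gave -0.32 and -0.28. With E18, the lowest array of the brightest probe at 8.29, they gave -0.51 and -0.24, the latter with the dim probe undetected on the E18 array. None of these reached 2-fold. Against the non-activated control the brightest probe was at -0.82 with E18 and -0.67 with E4. The lowest values of these changes over the settings were -1.08 and -1.21, past 2-fold.

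**Figure D4:**
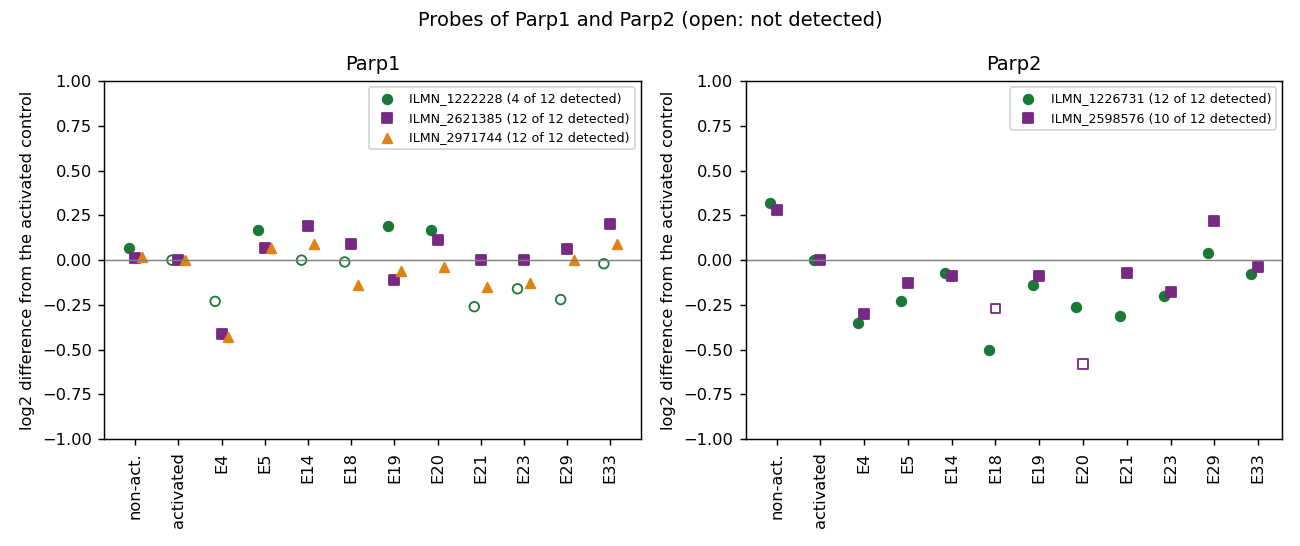
Difference from the activated control in log2 units (y axis) of the 3 Parp1 probes and the 2 Parp2 probes on the 12 arrays (x axis), with open points where a probe was not detected. The fully detected Parp1 probes read -0.43 and -0.41 with E4, and both Parp2 probes lie above 0 on the non-activated array.

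Genes with the most similar profile were sought for the interferon-responsive members, by the root mean square difference over the 12 arrays after each gene's own mean was subtracted, among 7152 named genes. For Parp14 they were Gbp10 (0.41), Irgm2 (0.44) and Irf8 (0.52), against 1.72 for the root mean square of Parp14's own profile. Gbp10 and Irgm2 code for interferon-induced GTPases and Irf8 for a transcription factor. With E4 they read -1.54, -1.29 and -0.78 against the activated control, all closer to 0 than Parp14's -2.34. The E4 array was among the 12 searched, so these values helped to select the genes and are no separate support.

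For Parp9 the nearest genes were Maff (0.35), Plk2 (0.37) and Amotl2 (0.39), against 1.10 for its own profile. Maff codes for a small basic leucine zipper factor, Plk2 for a polo-like kinase and Amotl2 for an angiomotin family protein. With E4, an array that entered the search, they stood at 0.50, 0.79 and 0.58, all under 2-fold. Their higher side there was part of what selected them. For Parp12 the nearest were Sod2 (0.17), the mitochondrial superoxide dismutase, and the class I histocompatibility genes H2-T23 (0.17) and H2-Q7 (0.18), against 0.41.

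Of 9 other PARP family genes 5 had a named probe, and Parp11, Tiparp, Tnks and Zc3hav1 were detected on 0 arrays. Parp16, a mono-ADP-ribosyltransferase of the endoplasmic reticulum, was detected on 2 arrays and was lower by at least 1.49-fold after activation, under the 2-fold line. A list of 7 genes held 6 that act on ADP-ribose removal and Dtx3l, and 3 of the 7 were measured, all of them removal genes. Of these 0 were 2-fold changed by activation or with E4. Of all measured genes, 3.17% were called higher and 2.12% lower after activation, and 0.494% and 2.88% with E4. With E29 Oard1, a hydrolase that clears terminal ADP-ribose, was 2.52-fold higher and Macrod1 was at 0.81, against 10.2% of all measured genes called higher.

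Repair partners of PARP1 were measured for 9 of 14 listed. After activation Aplf, a factor that binds poly(ADP-ribose), was 2.05-fold lower, and Xrcc1, the scaffold that PARP1 recruits, was at -0.86. Of the 9, 1 was called lower and 0 higher, where 2.12% of all measured genes were called lower and 3.17% higher. Without background correction Aplf came to -0.50 and with an offset of 50 to -0.74, both under 2-fold. With E4 0 of 9 were called, where 0.494% of all measured genes were called higher and 2.88% lower. Fen1, a flap endonuclease, was at -0.45 and Xrcc1 at 0.43. With E29 Xrcc1 was 2.48-fold and Polb, the repair polymerase, 2.18-fold higher. That made 2 of 9 higher and 0 lower, where 10.2% of all measured genes were called higher and 14.5% lower. Scaled to reference genes, Oard1, Xrcc1 and Polb came to 0.27, 0.23 and 0.09 with E29, and without background correction to 0.81, 0.77 and 0.54, all under 2-fold.

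Genes of NAD supply and use were measured for 6 of 12 listed after activation. Nampt, the rate-limiting enzyme of the NAD salvage pathway that refills the substrate of PARPs, was 2.76-fold higher, 1 of 6 where 3.17% of all genes were called higher, and 0 were lower. With E4 Nampt fell just short of 2-fold lower, and 0 of 4 measured genes were called, where 0.494% of all genes were called higher and 2.88% lower. With E29 Nampt was 2.48-fold lower, and Sirt1, a deacetylase that also consumes NAD, at least 4.00-fold lower, 2 of 4 measured where 14.5% of all genes were called lower. Nampt's calls rest on its brightest probe and the background correction: with the mean of its detected probes the changes were 0.81 for activation and -0.42 with E29, and without background correction 0.89 and -0.82, all under 2-fold. With the other stimulated arrays' median as the reference, Nampt with E29 came to -0.98.

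Interferon receptor and signalling genes were measured for 9 of 11 listed. After activation 4 were higher and 0 lower, against 3.17% and 2.12% of all genes: Irf1 8.12-fold, Stat2 6.38-fold, Irf9 2.75-fold and the receptor chain Ifnar2 2.09-fold, with a median of 0.73 over the list. With E4 Ifnar2 was 2.85-fold and Stat2 2.01-fold lower, 2 of 9 where 2.88% of all genes were called lower. Irf9 (-0.09) and Irf1 (0.02) stayed near the activated control, and the list's median was -0.09 against 0.04 for all genes. Stat2 with E4 missed 2-fold with the other stimulated arrays' median as the reference (-0.78), without background correction (-0.74), with an offset of 50 (-0.89) and in the authors' processed values (-0.96). With E4 0 of the 9 were called higher, where 0.494% of all genes were, so this count sets the list apart from no other genes.

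With E29 5 of the 9 were lower and 0 higher, where 14.5% of all genes were called lower and 10.2% higher, with a median of -1.22 against 0.25 for all genes. Irf1 was 21.5-fold, Irf9 6.22-fold and the kinase gene Jak2 2.49-fold lower, Stat2 at least 5.85-fold and Ifnar2 at least 2.33-fold lower. Ifnar2 was also lower with E14 (2.27-fold) and E33 (2.11-fold). None of the Ifnar2 calls held in every setting. With the other stimulated arrays' median as the reference its changes were -0.68 (E4), -0.35 (E14), -0.39 (E29) and -0.25 (E33), and activation, taken from the median of all 11 stimulated arrays, came to 0.23. Without background correction they were -0.72, -0.60, -0.61 and -0.55, and 0.55 for activation. With the mean of its detected probes E14 (-0.93), E29 (-0.96), E33 (-0.88) and activation (0.98) missed 2-fold, and E4 (-1.35) did not.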

How the data were processed

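Per the file headers, the authors deposited a table without normalisation that holds a mean bead intensity for each probe on each of 12 Illumina arrays, with a detection p-value, also deposited, that comes in steps of 1 in 798. The submitters' processing notes name GenomeStudio 2010.3, and any background subtraction is not given in the sources used. The authors also deposited processed intensity values on a linear scale, with the same direction, 45.1% to 45.2% of values at a floor of 10, medians of 14.91 to 14.97 and a normalisation method that is not given; all 12 columns matched their own sample of the unnormalised table most closely. Per the labels' protocols, 400 ng of RNA were transcribed in vitro for 12 h and labelled with biotin.

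Intensities were background-corrected from the detection p-values, quantile-normalised and log2-transformed by neqc (offset 16) in limma 3.58.1 (R 4.3.3). The platform annotation gave 23978 of 25697 probes 1 gene symbol each, gave no probe several and left 1719 unnamed; 23962 were looked up by gene ID in RefSeq GRCm38.p6, and 0 symbols changed. A gene was its brightest probe over all arrays; 4777 genes had several. A gene was measured if detected at a p-value under 0.01 on at least 1 array compared, of 8128 detected anywhere. Undetected values were raised to the array's lowest detected value, between 5.37 and 5.99, which makes the change a bound. Calls were made at 2-fold with no test, since each group has 1 array. Computation used Python 3.11.15, pandas 2.3.3, numpy 2.4.6 and matplotlib 3.10.9. Calling was tested on simulated data whose changed probes lay clearly above background, so that test does not cover probes near the detection limit. Named were all members, list genes past 2-fold or else up to 3 per list with the largest change, and the 3 most similar genes, detected on at least 6 arrays, for each interferon-responsive member. The members, classes and lists were chosen with earlier results of these data known. Alternatives were the offset (50), no background correction, scaling to a common median or to 8 reference genes, the mean of detected probes, a detection limit of 0.05, a 1.5-fold call, undetected values not raised, the authors' processed values, and the median of the other activated arrays as reference. Normalisation without E29 and changes relative to the median of all genes were added after seeing the data. The number of arrays and signal over background limit the precision.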

Additional observations from a re-analysis of the deposited data

How the results depend on the processing

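No paired analysis was possible because each group holds 1 array, and no replicate could be left out. Of 480 alternative values of the counts of members called, 451 stayed within 1.5 times the main count and 29 moved. The cause was not tested. Counts of 0 in both settings were among those that stayed. The loss of 1 gene from a count of 3 or 4 also passed as staying. The 451 therefore do not measure how stable the calls are. Calling at 1.5-fold gave 1 gene higher against the activated control with E14 and E18, 1 lower with E19, E20 and E33, and 4 lower with E29 (2 at 2-fold). In the same setting, against the non-activated control, 1 was lower with E4, E18 and E21, and 2 were higher with E29. With the median of the other activated arrays as reference, 0 were lower with E14 and E18 and 1 with E4. Without background correction 2 were higher after activation (4 with it), 2 were higher against the non-activated control with E5, E14, E18, E21 and E23, and 1 was lower with E4 against the activated control. An offset of 50 gave 1 lower with E4 against the activated and 2 higher with E14 against the non-activated control. Scaling to a common median gave 0 lower with E18 against the activated control. Scaling to reference genes gave 0 higher with E4 and 4 lower with E29 against the activated control, and against the non-activated control 2 higher and 1 lower with E18, 2 lower with E29 and 1 lower with E4.

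Of 1305 alternative values of single genes, 1258 kept their side of the 2-fold line, 35 fell under it and 12 rose past it. Of the 1258, 30 turned sign, all of them values under 2-fold, and 0 of the called values did. Parp14 ranged from 3.80 to 4.59 for activation, -2.84 to -1.93 with E4, -1.29 to -0.81 with E14, -1.26 to -0.64 with E18 and -6.19 to -4.09 with E29. Parp9 ranged from 1.35 to 3.01 for activation, 0.96 to 1.54 with E4, 0.57 to 0.74 with E14, 0.56 to 0.84 with E18 and -3.04 to -1.13 with E29. Parp3 ranged from 0.99 to 1.67 and Parp12 from 0.87 to 1.52 for activation. On the non-activated and E29 arrays Parp9 was under the detection limit, so its full change could not be measured there.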
